A study of Mus musculus with 36 samples.

Results

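Ppard encodes PPARδ, a nuclear receptor that is activated by fatty acids, pairs with the retinoid X receptor on DNA and switches on genes of fatty acid uptake and oxidation. In skeletal muscle it is known for its role in oxidative fibres and in the adaptation to endurance exercise. Methylation is placed mainly on cytosines that precede a guanine (CpG sites), and CpG-rich promoters around a transcription start site (TSS) are usually kept with little of it, while CpG sites farther away can carry more. The data described here are all cytosines that the deposited methylation table lists for Ppard, 51 of the 171 cytosines listed for 3 genes, the others being Nr4a3 and Ccnd1.

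The samples were C2C12 myotubes, fused and differentiated cells of an established mouse muscle line, so that every sample has the genetic background of that single line. Control cells were not stimulated, and EPS cells received electrical pulse stimulation, which makes cultured myotubes contract. Both were harvested at the end of EPS (0 min), after 30 or 60 min, and after 120, 180 or 240 min, with 3 independent experiments in each of the 12 groups, 36 samples in all. DNA was bisulfite-converted, amplified with primers for the 3 genes together and sequenced, which reads methylated and hydroxymethylated cytosines alike, and the comparison asks whether contraction changes methylation near the Ppard TSS.

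The 51 cytosines were taken in 3 blocks by their distance from the listed TSS. The upstream block, 300 to 194 bp upstream of the TSS, holds 7 CpG sites, all with a value in all 36 samples. The TSS block runs from 185 bp upstream to the start of intron 1 and lists 36 CpG sites, but only the 5 from 185 to 127 bp upstream have a value in every sample and the 31 from 1 bp upstream onwards do not. The intron block holds 8 cytosines farther downstream, all with complete values. Across the 3 genes, 117 of 171 cytosines are complete, 20 of them in Ppard, and block means below are means over the complete sites of a block in each sample. Percentages are methylation levels, and differences between them are in percentage points. The table analysed gives no read counts, which leaves the depth unknown and allows no counting interval.

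Ppard (ENSMUSG00000002250.16) is annotated on the plus strand of chromosome 17 of GRCm38 (mm10) from 28232700 to 28301474, and the listed TSS is at 28232754, 54 bp inside the annotated start. The upstream block, 28232454 to 28232560, and the complete sites of the TSS block, 28232569 to 28232627, lie upstream of the gene. The incomplete sites, 28232753 to 28233006, cover part of exon 1, a 5′ UTR exon that ends at 28232864, and the start of intron 1. The intron block, 28233460 to 28233606, lies within intron 1, which runs from 28232865 to 28237011. CpG dinucleotides were densest around the TSS, at 12.2 per 100 bp over the 31 incomplete sites, against 8.47 over the complete sites of the TSS block, 6.54 in the upstream block and 3.40 in the intron block.

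Matched to the converted reference, the 2 Ppard primer pairs amplify 201 bp upstream (chr17:28232426-28232626, 328 to 128 bp upstream) and 200 bp in intron 1 (chr17:28233446-28233645, 692 to 891 bp downstream). Both are shown because every complete site but the one 127 bp upstream lies in them, and they differ in CpG content. They are written as the unconverted plus strand of GRCm38, 5′ to 3′, with CpG sites and the other listed cytosines in capitals.
Upstream: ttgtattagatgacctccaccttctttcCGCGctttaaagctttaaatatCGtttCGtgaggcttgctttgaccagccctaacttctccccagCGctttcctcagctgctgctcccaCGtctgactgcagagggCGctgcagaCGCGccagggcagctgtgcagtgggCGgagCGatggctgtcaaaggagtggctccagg
Intron: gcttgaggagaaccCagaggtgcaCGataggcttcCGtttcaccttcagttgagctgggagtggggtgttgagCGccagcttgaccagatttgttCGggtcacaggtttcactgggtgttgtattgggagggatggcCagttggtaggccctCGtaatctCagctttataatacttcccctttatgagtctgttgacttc

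The upstream stretch holds 11 CpG dinucleotides at a GC content of 56.7% and the intron stretch 5 at 51.5%, an observed to expected CpG ratio of 0.681 and 0.390. All CpG sites of both stretches are listed. The intron block adds 3 cytosines in a CHG context (H is A, C or T), its first and last cytosines and the one 829 bp downstream, of which the first lies under the forward primer. The primer has a T at that cytosine, so products of this primer pair carry the primer's base there and not that of the sample. The site 127 bp upstream and the 31 incomplete sites lie outside both stretches. Values at 127 bp upstream and at the first intron cytosine are nevertheless listed in all 36 samples and are kept in the block means. Where these values come from was not tested. In the RefSeq promoter window of Ppard in GRCm38.p6 (250 bases before to 50 after its start, 28232504 to 28232803), 27 CpG dinucleotides were counted against a median of 7 over 32851 promoters, and 15.5% of promoters held at least as many. The letters GGGCGG, searched on both strands, occur there 3 times, at 163 to 158, 93 to 88 and 29 to 24 bp upstream of the listed TSS, and 35.7% of promoters hold them. The first occurrence lies in the upstream stretch and spans the CpG 160 bp upstream.

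Methylation was low in all blocks. The upstream block averaged 4.001% ± 1.41 (SD, n = 36), from 1.45% to 9.66%. The TSS block averaged 0.371% ± 0.492 (n = 36), from 0% to 2.26%, and 7 samples, 2 control and 5 EPS, were at 0% over all 5 sites. The intron block averaged 4.96% ± 0.509 (n = 36), from 3.89% to 5.97%. The upstream block was higher than the TSS block in 36 of 36 samples, by 3.63 percentage points (two-sided sign-flip permutation test, p = 1e-05, the smallest the resamples can give). The intron block was higher than the TSS block in 36 of 36 samples as well, by 4.59 percentage points (permutation p = 1e-05). These 2 differences kept their direction and their side of the threshold when medians, a log2 scale or CpG sites alone were used.

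The order of the upstream and intron blocks was less settled. The intron mean was higher in 32 of 36 samples, by 0.959 percentage points (SD 1.45, permutation p = 0.00039). Taking the median over the sites of a block in place of the mean turned the order, with the intron 1.65 percentage points below the upstream block (mean difference −1.65, permutation p = 1e-05), since most upstream sites lie on the high end of the fall and most intron sites on the low end of the rise. With CpG sites alone the difference was 0.484 (permutation p = 0.0504), and without the 12 samples of replicate 1 it was 0.648 (permutation p = 0.0612).

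Within the upstream block, methylation was flat over the first 4 sites and then fell towards the TSS. The means over 36 samples were 5.80% ± 2.25 at 300 bp, 5.79% at 298 bp, 5.94% at 278 bp and 5.96% ± 2.07 at 273 bp upstream, the highest of the block. They then dropped to 2.80% at 235 bp, 1.30% at 211 bp and 0.429% ± 0.393 at 194 bp upstream, the lowest of the block. The step from 273 to 235 bp made up 58.8% of the fall from the first to the last site, that from 235 to 211 bp 28.03% and that from 211 to 194 bp 16.1%, and each of these steps was downward in 36 of 36 samples. The mean at the first site was 13.5-fold that at the last. In the sequence above, the first 4 CpG sites are the capitals nearest the forward primer, and the fall crosses the next 3.

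The level stayed low over the complete sites of the TSS block. Means were 0.369% ± 0.396 at 185 bp upstream, the first site, 0.368% at 183 bp, 0.341% at 160 bp, 0.328% ± 0.519 at 155 bp, the lowest, and 0.448% ± 0.819 at 127 bp, the last and highest. The SD exceeded the mean at each of the 5 sites, of which that at 127 bp lies outside both amplified stretches. Single sites were listed at 0% often, in 7 samples at the first of these sites and in 21 at the last.

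The intron block ran the other way, rising with distance from the TSS. Its means were 3.43% ± 0.547 at the first site (28233460), the lowest, 3.50% at 716 bp, 3.55% at 727 bp, 3.66% ± 0.525 at 765 bp, 4.38% at 787 bp, 6.26% at 829 bp, 7.33% at 844 bp downstream and 7.57% ± 1.05 at the last site (28233606), the highest. Both end sites are CHG cytosines, and at the first, which lies under a primer, the products carry the primer's base. The rise was therefore taken between the first and the last CpG site. The site at 844 bp was above that at 716 bp in 36 of 36 samples, by 3.83 percentage points ± 1.08 (SD), from 0.822 to 5.87, and its mean was 2.09-fold as high. The CHG cytosine at 829 bp, 6.26%, was at 95.5% of the value on the straight line between its CpG neighbours, 6.55%. The intron block spans 10 CHG cytosines on the plus strand, of which 3 are listed, and the upstream block spans 8, of which none is listed. No conversion rate was used, and how much of these levels is incomplete bisulfite conversion was not tested. Across the 36 samples the values of adjacent sites were correlated, with a median of 0.968 upstream, 0.967 in the TSS block and 0.970 in the intron. The lowest correlation was 0.728 upstream, 0.888 in the TSS block and 0.752 in the intron, the last between 787 and 829 bp. The highest was 0.99999 upstream, 0.9994 in the TSS block and 0.998 in the intron. The sites of a sample are therefore not separate measurements. Whether the level listed for a cytosine, CHG or CpG, is its own was not tested, which also limits how finely the steps along a block can be read.

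**Figure D1:**
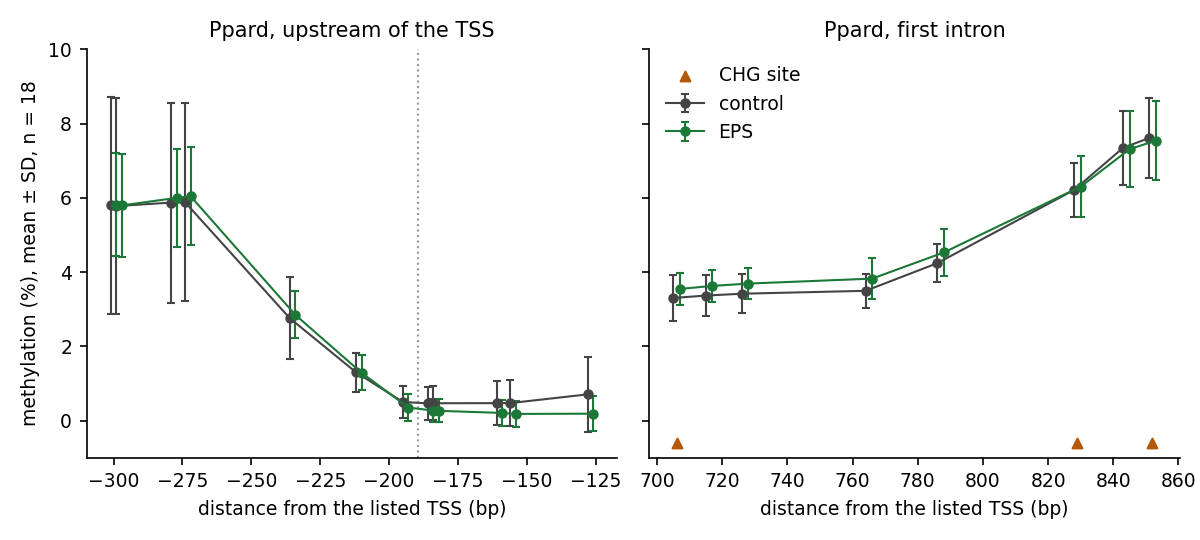
Methylation (%) at the 20 complete Ppard cytosines against the distance from the listed TSS (bp), as mean ± SD of 18 control and 18 EPS samples. Triangles mark CHG cytosines and the dotted line parts the upstream from the TSS block. The level falls from 5.96% at 273 bp to 0.429% at 194 bp upstream and rises through the intron block to 7.57% at its last site, with both conditions close together.

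The fall from the first to the last upstream site was above 0 in 36 of 36 samples and averaged 5.37 percentage points ± 2.24 (SD), from 0.893 to 14.7. It was 5.29 ± 2.86 in the 18 control and 5.46 ± 1.46 in the 18 EPS samples, a difference of 0.163 (95% interval −1.36 to 1.69, stratified permutation p = 0.844). That difference depended on the replicate. Without replicate 3 it was 1.65 (permutation p = 0.0186), without replicate 1 it was −0.321 and without replicate 2 it was −0.843.

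The upstream block means showed no steady difference between EPS and control. At 0 min the control samples (replicates 1, 2 and 3) were at 3.203%, 3.66% and 4.05% and the EPS samples at 3.42%, 4.34% and 2.12%. At 30 min the control samples were at 4.01%, 5.85% and 9.66% and the EPS samples at 3.71%, 4.84% and 3.02%. The third control sample at 30 min was the highest of all 36 and stood apart from the others, and the groups overlapped at both times. At 60 min the control samples were at 3.71%, 2.08% and 5.46% and the EPS samples at 3.63%, 5.81% and 4.47%. At 120 min the control samples were at 2.33%, 3.43% and 3.72% and the EPS samples at 4.33%, 5.18% and 4.45%. Here all EPS samples lay above all control samples, the only such case among the 18 comparisons of a block at a time point. Over the regions of all 3 genes, 2.78% of such comparisons (1 of 36, this one) had groups that did not overlap. At 180 min the control samples were at 2.74%, 1.45% and 5.04% and the EPS samples at 4.92%, 4.10% and 3.57%. At 240 min the control samples were at 2.83%, 4.78% and 3.72% and the EPS samples at 3.10%, 3.75% and 3.58%, with overlap at both times.

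The difference, EPS minus control, was −0.343 percentage points at 0 min (two-sided exact permutation p = 0.8), −2.65 at 30 min (exact p = 0.2), 0.890 at 60 min (exact p = 0.5), 1.49 at 120 min (exact p = 0.1), 1.12 at 180 min (exact p = 0.5) and −0.300 at 240 min (exact p = 0.8). With 3 samples against 3 the smallest p is 0.1, and after adjustment over the 18 comparisons the smallest p was 0.9. Single samples weighed heavily in these differences. The sign turned at 0 min without the third EPS sample (0.242) and at 240 min without the second control sample (0.200). Without the third control sample the difference at 30 min was −1.07, and without the second control sample of the time point it was 0.0532 at 60 min and 0.307 at 180 min. Over the 6 time points together the difference was 0.0359 (SE 0.433, 95% interval −0.858 to 0.930, permutation p = 0.943), and 0.299 without the third control sample at 30 min (permutation p = 0.428). Whether the difference varied with time gave a permutation p of 0.0876 (adjusted over the 3 blocks, 0.263), and 0.286 without that control sample at 30 min. Against the mean of all 18 control samples in place of those of the same time, the differences kept their signs and were −0.691 at 0 min, −0.126 at 30 min, 0.655 at 60 min, 0.671 at 120 min, 0.214 at 180 min and −0.508 at 240 min.

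The TSS block was near 0 in most samples. At 0 min the control samples were at 0.615%, 0.361% and 1.05% and the EPS samples at 0.0506%, 1.07% and 0%. At 30 min the control samples were at 0.285%, 2.26% and 0.133% and the EPS samples at 0.0648%, 0% and 0.148%. The second control sample at 30 min was the highest of the 36, and it was not the sample that stood highest in the upstream block. At 60 min the control samples were at 0.286%, 0.0723% and 1.15% and the EPS samples at 0%, 0% and 0.0805%. At 120 min the control samples were at 0%, 0.206% and 0.105% and the EPS samples at 0.416%, 0.0677% and 0.813%. The mean was lower in EPS at 60 min and higher in EPS at 120 min, with groups that overlapped at both. At 180 min the control samples were at 1.23%, 0.314% and 0.333% and the EPS samples at 0.332%, 0.679% and 0.0815%. At 240 min the control samples were at 0%, 0.0651% and 0.855% and the EPS samples at 0.0388%, 0.172% and 0%. A single control sample set the higher control mean at each of these last 2 times, and without it the sign turned (0.0411 and 0.0378).

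EPS minus control in the TSS block was −0.301 percentage points at 0 min (exact permutation p = 0.6), −0.823 at 30 min (exact p = 0.2), −0.476 at 60 min (exact p = 0.2), 0.329 at 120 min (exact p = 0.3), −0.262 at 180 min (exact p = 0.6) and −0.236 at 240 min (exact p = 0.7). Over all times EPS samples averaged 0.223% ± 0.320 (SD, n = 18) and control samples 0.518% ± 0.591 (n = 18), a difference of −0.295 (95% interval −0.638 to 0.0483, permutation p = 0.0769, adjusted over the 3 blocks 0.231). Leaving out 1 sample brought the difference at 0 min to −0.113 (without the third control sample) or −0.651 (without the second EPS sample), that at 120 min to 0.138 (without the third EPS sample) or 0.511 (without the second), that at 30 min to −0.138 (without the second control sample) and that at 60 min to −0.153 (without the third). The value over all times did not pass the threshold, and its unadjusted p moved to both sides with the setting. On the log2(beta/(1 − beta)) scale, where beta is the level as a fraction, it was −0.86 (permutation p = 0.0488). This log2 value depends on the floor set for levels of 0%, which 7 samples had over all 5 sites. No other floor was tried for it. On the percent scale, permutation p was under 0.05 in 3 of 36 fits with 1 sample left out. It was 0.0267 without the second EPS sample at 0 min, 0.0459 without the third control sample at 30 min and 0.0381 without the third EPS sample at 120 min. In the other direction, permutation p was 0.118 with medians over sites and 0.123 with only the sites between the primers (difference −0.239). It was 0.319 with samples centred on the other 2 genes, where the difference was nearly the same, −0.284. These p-values are not adjusted over the blocks. The centring subtracts a mean that includes the distal Nr4a3 region, whose SD over the samples was 2.75 against 0.492 in the TSS block. Without the second control sample at 30 min the difference shrank to −0.181. The difference was 0.0467 (permutation p = 0.917) when every listed value of the block was averaged, the incomplete sites included.

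The intron block had the smallest spread relative to its level, though not in percentage points, where the SD over the 36 samples was 0.509 against 0.492 in the TSS block. At 0 min the control samples were at 4.44%, 5.36% and 4.63% and the EPS samples at 5.63%, 5.28% and 4.38%. At 30 min the control samples were at 4.93%, 4.07% and 4.92% and the EPS samples at 4.90%, 5.59% and 4.44%. All of these lay within 2 percentage points of each other, in contrast to the upstream values of the same samples. At 60 min the control samples were at 4.42%, 4.71% and 5.44% and the EPS samples at 5.00%, 4.48% and 4.92%. At 120 min the control samples were at 5.21%, 5.75% and 3.89% and the EPS samples at 5.78%, 5.22% and 4.73%. The third control sample at 120 min was the lowest of the 36, and the groups overlapped at each of these times. At 180 min the control samples were at 4.83%, 4.79% and 5.62% and the EPS samples at 5.25%, 5.97% and 4.51%. At 240 min the control samples were at 5.09%, 5.21% and 4.45% and the EPS samples at 5.43%, 4.95% and 4.37%.

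The intron differences, EPS minus control, were 0.286 percentage points at 0 min, 0.339 at 30 min, −0.0518 at 60 min, 0.295 at 120 min, 0.164 at 180 min and −0.00156 at 240 min, with exact permutation p between 0.6 and 1. Without 1 EPS sample they shrank to 0.0211 at 0 min (the first) and 0.0331 at 30 min (the second). The sign turned at 60 min without the third control sample (0.239) or the second EPS sample (0.109), at 120 min without the third control sample (−0.236) and at 180 min without the second EPS sample (−0.200). At 240 min, where the difference was near 0, it turned when any 1 of 3 samples was left out, up to 0.273. Over the 6 time points the difference was 0.172 (SE 0.192, 95% interval −0.225 to 0.568, permutation p = 0.338), and 0.0831 without the third control sample at 120 min. Its variation with time gave a permutation p of 0.988, and the same test in the TSS block 0.710. The EPS difference of the intron block minus that of the upstream block was 0.136 (95% interval −0.742 to 1.01, permutation p = 0.783), so that no difference in response between these blocks was shown. It was −0.534 without replicate 3 and −0.104 without the third control sample at 30 min.

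**Figure D2:**
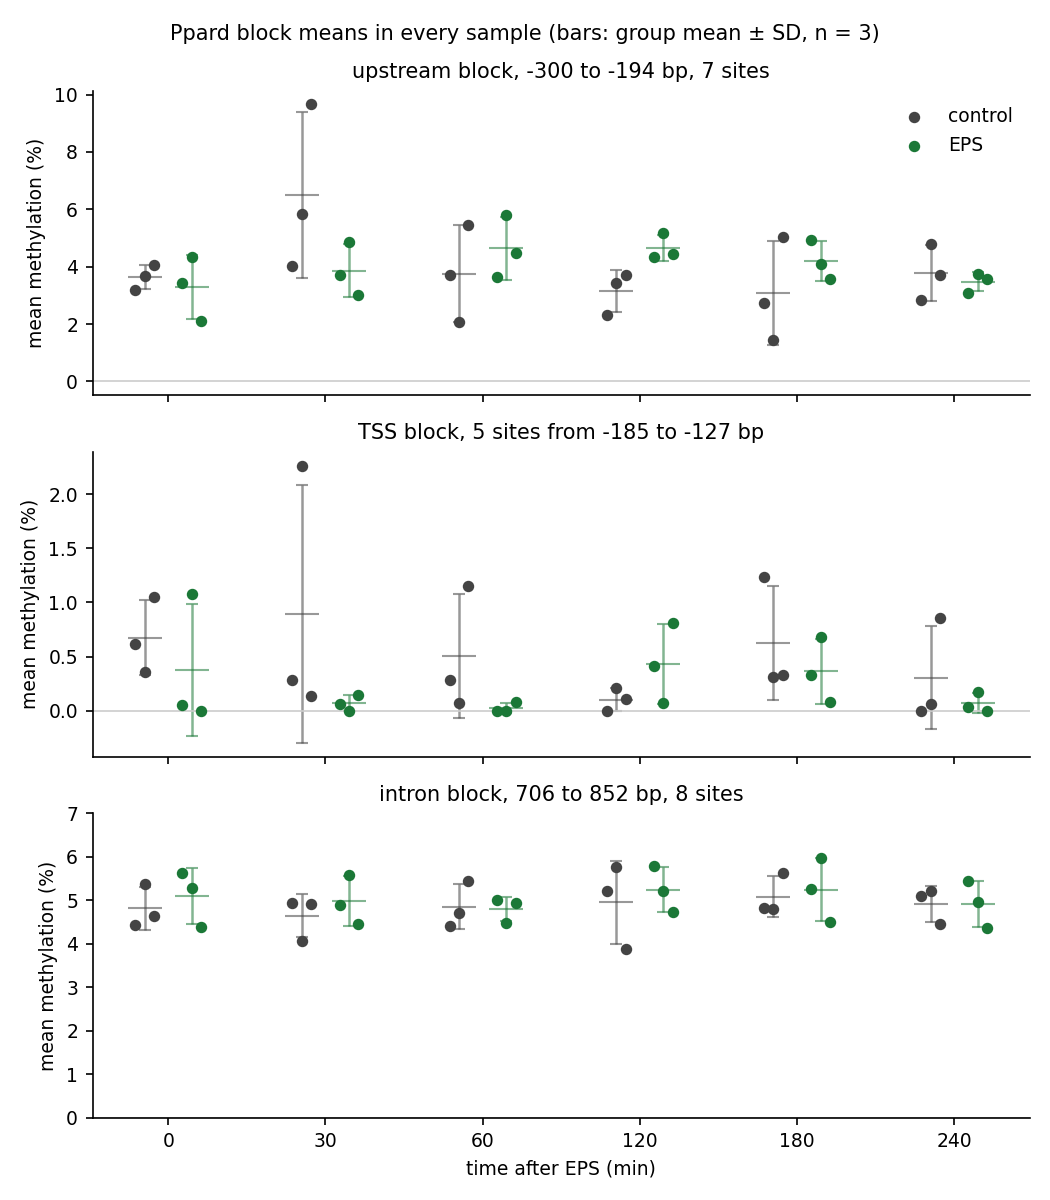
Mean methylation (%) of the upstream, TSS and intron blocks in each of the 36 samples by time after EPS (min), with the group mean ± SD (n = 3) and a separate vertical scale for each block. Control and EPS samples overlap at every time in every block except upstream at 120 min, and the control sample at 9.66% stands apart at 30 min.

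**Figure D3:**
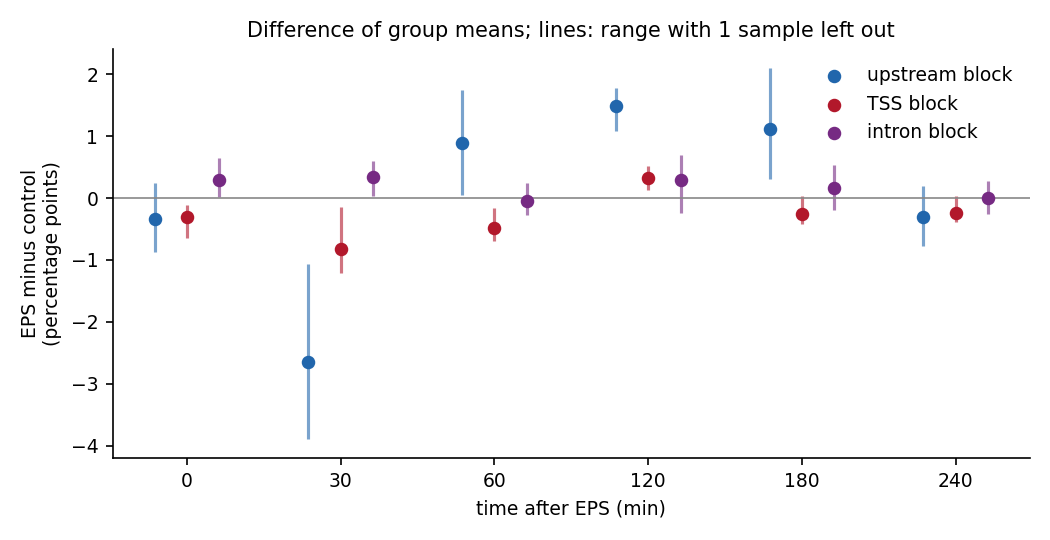
EPS minus control (percentage points) for each block by time after EPS (min), with lines from the lowest to the highest value when each of the 6 samples is left out in turn. The upstream block ranges from −2.65 at 30 min to 1.49 at 120 min, while the intron block stays between −0.0518 and 0.339.

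Time alone gave no variation past the threshold. Group means of the upstream block ran from 3.08% (180 min) to 6.50% (30 min) in control and from 3.29% (0 min) to 4.65% (120 min) in EPS cells. A permutation test of the time labels gave p = 0.154 in control and 0.276 in EPS cells for the upstream block, 0.726 and 0.422 for the TSS block, and 0.959 and 0.895 for the intron block, with adjusted values of 0.829 or more over these 6 tests.

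The spread between replicates differed between blocks. The SD of the 3 log2 block means of a group averaged 0.406 in the upstream block, from 0.138 (EPS, 120 min) to 0.901 (control, 180 min), and 0.162 in the intron block, from 0.0858 (EPS, 60 min) to 0.294 (control, 120 min). It was larger upstream in 10 of 12 groups, the exceptions being EPS at 120 and 240 min, with a mean difference of 0.244 (two-sided exact sign-flip permutation test, p = 0.00195). The upstream SD averaged 0.525 over the 6 control and 0.287 over the 6 EPS groups, against 0.167 and 0.158 in the intron, and the difference between conditions was not tested. Leaving out each group in turn gave 0.196 to 0.267 with an exact p of at most 0.00391. In percent of the group mean the median spread was 23.9% upstream, 10.7% in the intron and 109% in the TSS block, where 7 samples were at 0%. In the same samples it was 90.5% in the distal Nr4a3 region, 22.4% in the Ccnd1 region at 389 to 566 bp and 6.64% in that at 1260 to 1643 bp. The Ppard TSS block had the highest median of these 6 regions, the upstream block lay near the Ccnd1 region at 389 to 566 bp, and the intron block lay between the 2 Ccnd1 regions.

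**Figure D4:**
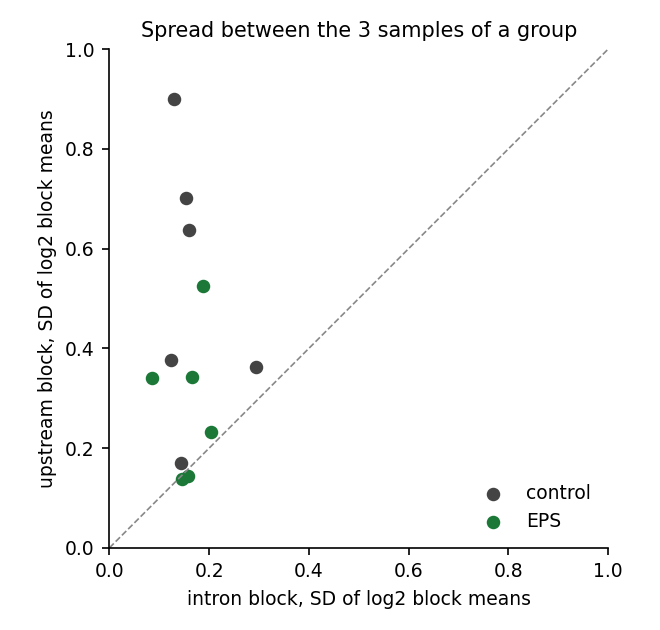
SD of the log2 block means of the 3 samples of a group, upstream block (vertical) against intron block (horizontal), 1 point for each of the 12 groups, with the line of equality dashed. Of the 12 points, 10 lie above the line, and the highest, control at 180 min, is at 0.901 upstream and 0.130 in the intron.

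Samples that were high upstream were not clearly high elsewhere. With group means removed, the upstream and intron means of the 36 samples had a Pearson r of 0.261 (permutation p = 0.125) and a Spearman rho of 0.309 (permutation p = 0.0676), and r was 0.329 without the 2 samples farthest from the median. For upstream and TSS means r was 0.0619 (permutation p = 0.714) and rho was 0.171 (permutation p = 0.317), with r = 0.170 without the 2 farthest samples. In all 6 relations were computed, counting control and EPS samples apart, and the smallest adjusted p was 0.405.

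Site by site, limma was fitted to log2(beta/(1 − beta)) over the 117 complete cytosines of the 3 genes. None of the 120 Ppard tests (20 sites at 6 times) had an adjusted p under 0.05, against 0% of all 702 tests. At an unadjusted p under 0.05 there were 3 of 120 in Ppard, against 0.427% of all tests (3 of 702, these same 3), and with 1 sample left out the Ppard count ranged from 1 to 11. The smallest p of the upstream block was 211 bp upstream at 120 min. The control samples there were at 0.670%, 1.09% and 1.21% and the EPS samples at 1.63%, 1.48% and 2.76%, without overlap. The limma difference was 0.99 on the log2(beta/(1 − beta)) scale (SE 0.38, unadjusted p = 0.0150, adjusted p = 1.00). The other 2 were 235 bp upstream at 120 min (0.68, SE 0.33, unadjusted p = 0.0497) and 194 bp upstream at 30 min (−1.79, SE 0.86, unadjusted p = 0.0473), and they are named after their values were seen.

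In the TSS block the smallest limma p was 185 bp upstream at 30 min, where the control samples were at 0.383%, 1.89% and 0.306% and the EPS samples at 0.148%, 0% and 0.340%. The groups overlapped, and the limma difference was −1.83 (SE 0.89, unadjusted p = 0.0512). In the intron block it was 765 bp downstream at 30 min, where the control samples were at 3.34%, 2.91% and 3.66% and the EPS samples at 3.99%, 4.81% and 3.44%. These groups overlapped as well, with a limma difference of 0.31 (SE 0.19, unadjusted p = 0.109).

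At 120 min, 6 of the 7 upstream sites, all but the last, had every EPS sample above every control sample, against 5.13% of the complete cytosines of the table (6 of 117, these same 6). At 300 bp upstream the control samples were at 3.41%, 5.02% and 5.18% and the EPS samples at 6.05%, 7.75% and 5.31%. At 235 bp upstream the control samples were at 1.65%, 2.38% and 2.82% and the EPS samples at 3.25%, 3.55% and 3.84%. The margin was small at 300 bp, 5.31% against 5.18%, and since neighbouring sites move together the 6 sites are not 6 separate observations. At 30 min, 2 of the 7, at 211 and 194 bp upstream, had every EPS sample below every control sample, against 1.71% of the table (2 of 117, these same 2). At 194 bp upstream the control samples were at 0.490%, 1.83% and 0.486% and the EPS samples at 0.237%, 0.0558% and 0.458%. No other Ppard site had groups without overlap at any time. Elsewhere in the table, EPS samples above all control samples were found for 7.69% of complete cytosines at 30 min, for 2.56% at 0 min, for 2.56% at 60 min and for 1.71% at 240 min. EPS samples below all control samples were found for 2.56% at 60 min.

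Around the TSS itself the table is sparse. The 31 CpG sites from 1 bp upstream into intron 1 (28232753 to 28233006) have values in 11 of 36 samples, 3 of 18 control (16.7%) and 8 of 18 EPS samples (44.4%), a difference of 27.8 percentage points (stratified permutation p = 0.134). Of the 11 samples, 7 are of replicate 1, 3 of replicate 2 and 1 of replicate 3. All listed values were 0% in 9 of these 11 samples. The EPS sample of replicate 1 at 120 min had values above 0 at 11 of 31 sites, from 1 bp upstream to 90 bp downstream, the highest 8.95% at 11 bp. The EPS sample of replicate 2 at 180 min had values above 0 at 18 of 20 sites, from 9 to 143 bp downstream, the highest 9.68% at 143 bp. The sites from 175 bp downstream onwards were at 0% in each of the 7 to 9 samples that list them. These sites lie outside both amplified stretches, and how many reads stand behind their values is unknown.

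**Figure D5:**
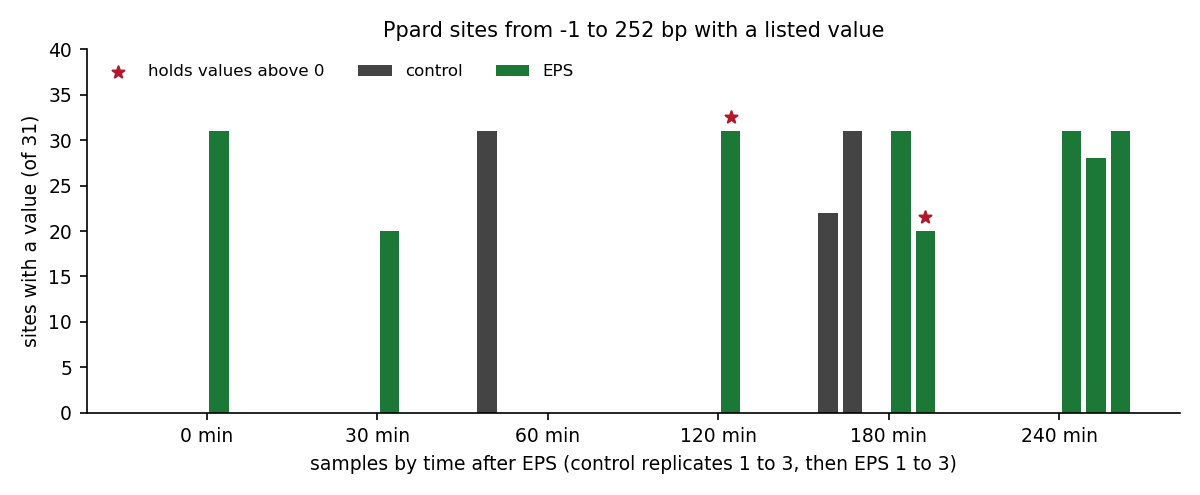
Number of the 31 incomplete Ppard sites around the TSS that have a listed value, for each of the 36 samples ordered by time after EPS, control replicates 1 to 3 and then EPS replicates 1 to 3. Of the 36 samples, 11 have any value, 3 control and 8 EPS, and stars mark the 2 with values above 0.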

How the data were processed

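The submitters' processing notes name Trim Galore 0.3.7, cutadapt 1.4.2, Bismark and mm10. Methylation was deposited by the authors in percent, 1 value per cytosine and sample, and the table analysed gives neither counts nor coverage. A second table holds the authors' own p-values and was not used. A control sample at 0 min carries differing replicate numbers in its labels, and that of its title was used. No 2 samples held identical values. From the percent values, means over the complete sites of each Ppard block were computed in each sample. They were compared by exact permutation tests within a time point, by permutation tests with labels shuffled within time points (100000 resamples) over all times, and by sign-flip permutation tests between blocks, all two-sided, with Benjamini-Hochberg adjustment. Intervals of 95% came from the within-group spread (24 residual degrees of freedom). Single cytosines were tested with limma 3.58.1 (R 4.3.3), with log2(beta/(1 − beta)) as the response, beta held 0.001 from 0 and 1, with 12 group means. Other computations used Python 3.11.15 with pandas 2.3.3, scipy 1.17.1 and numpy 2.4.6. The tests were checked on simulated normal values, drawn separately for each site or sample. These had neither the correlation of adjacent sites nor the levels of 0% found in the TSS block. Annotation was GENCODE M21. Named cytosines are the first and last, the highest and lowest, and that with the smallest limma p of each block, beside the series of means along each block. Members, blocks and alternatives were chosen with earlier results of these data known. Alternatives were other scales, medians, CpG sites alone, sites between the primers, centred samples, all controls as reference, a replicate block, and samples or groups left out.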

Additional observations from a re-analysis of the deposited data

Results flagged for a closer look

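A pair of values was picked out because it lies at sites left out of the block means above, where no control sample has a value above 0. Among the 31 incomplete sites around the TSS, the EPS sample of replicate 1 at 120 min reached 8.95% at 11 bp downstream, and the EPS sample of replicate 2 at 180 min reached 9.68% at 143 bp downstream. Values for these sites are listed in 3 control and 8 EPS samples, the other 6 of these EPS samples are at 0%, and the difference between conditions was not tested at these sites. The control samples with values are of 60 and 180 min, so that the EPS value at 120 min has no control of its own time.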

How the results depend on the processing

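The depth is unknown, so no coverage minimum could be tried, and the exact test of 3 samples against 3 at a single time point cannot give p under 0.1. Leaving out single samples, over the 6 time points EPS minus control ranged from −0.172 to 0.299 percentage points in the upstream block (below 0 in 12 of 36), −0.358 to −0.181 in the TSS block (p 0.0267 to 0.145 by permutation) and 0.0831 to 0.239 in the intron block. The TSS value became −0.86 on the log2 scale (permutation p = 0.0488), with a floor for levels of 0% that was not varied. It became 0.0467 with all listed values.

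At single time points, leaving out a sample gave, upstream, −0.867 to 0.242 at 0 min, −3.90 to −1.07 at 30 min, 0.0532 to 1.75 at 60 min, 1.08 to 1.78 at 120 min, 0.307 to 2.10 at 180 min and −0.770 to 0.200 at 240 min. In the TSS block it gave −0.651 to −0.113 at 0 min, −1.20 to −0.138 at 30 min, −0.692 to −0.153 at 60 min, 0.138 to 0.511 at 120 min, −0.419 to 0.0411 at 180 min and −0.390 to 0.0378 at 240 min. In the intron block it gave 0.0211 to 0.643 at 0 min, 0.0331 to 0.606 at 30 min, −0.271 to 0.239 at 60 min, −0.236 to 0.697 at 120 min, −0.200 to 0.531 at 180 min and −0.260 to 0.273 at 240 min. With all 18 controls as the reference, the upstream differences lay between −0.691 and 0.671 (−0.126 at 30 min), the TSS block at 120 min was −0.0858 and the intron block at 240 min 0.0406. Centred on the other 2 genes, the TSS block at 240 min was 0.0188 and the intron block 0.254. With medians over sites the intron block was 0.0105 at 60 min and 0.0920 at 240 min, where it was 0.0291 with CpG sites alone and 0.0358 on the log2 scale. These intron values at 240 min compare with −0.00156.

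Intron minus upstream level was −1.65 with medians, 0.484 with CpG sites alone, and 0.648 to 1.30 without a replicate. The EPS effect on the fall was −0.843 to 1.65 without a replicate, and that on intron minus upstream −0.534 to 0.638, and −0.104 without the third control sample at 30 min, an alternative chosen after seeing the data, as were leaving out each group for the spread and other scales for the levels against the TSS block. The count of Ppard limma calls at an adjusted p under 0.05 was 0 under all 41 other settings. At an unadjusted p under 0.05 the percent scale gave 11 of 702, all in Ppard, the replicate block 9, of which 3 in Ppard, and leaving out single samples 1 to 11, of which 1 to 11 in Ppard (11 without the first control sample at 30 min, 10 in Ppard without the second control sample at 60 min). The cause of these changes was not tested.

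Replicate numbers were not taken to pair the samples, since of 18 same-numbered pairs 9 had a correlation above 0.1 (median −0.00807) and 6 matched their own number best. At 120 min all 3 pairs had a correlation above 0.1, at 0.922, 0.607 and 0.765 over the sites of the 3 genes, but at 0.0577, −0.907 and 0.262 over the Ppard sites. With a replicate block the differences stay as they were by construction (upstream 0.0359, TSS −0.295, intron 0.172), with permutation p of 0.952, 0.106 and 0.318, and no call changed.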
